A study of Taeniopygia guttata with 48 samples.

Results

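Of 17475 genes measured in the brains of adult zebra finches, 108 were chosen because their RNA averaged higher in the hypothalamus than in the nucleus taenia of the amygdala in both males and females. The choice used the deposited FPKM values (fragments per kilobase of transcript, relative to a fixed number of mapped fragments) of 23 RNA libraries. A gene was taken when its mean was at least 5 FPKM and its mean log2(FPKM + 1) in hypothalamus minus that in nucleus taenia was at least 0.5 in males and at least 0.5 in females. Of the 17475 genes, 11006 reached the mean of 5 FPKM, and the 108 were 0.981% of them. Since these region differences chose the genes, they are given below as a description and without a test.

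Eggs had been injected on the morning they were laid with 5 µl of peanut oil that held 500 pg of testosterone, or with plain peanut oil. Brain tissue was later taken from the adult birds with a 1 mm punch from sections of 50 µm. The libraries formed 8 groups of 3. They were male testosterone hypothalamus, male oil hypothalamus, male testosterone nucleus taenia and male oil nucleus taenia, and the same 4 groups in females. The strain of the birds and their age beyond adulthood were not given in the sources used here, and the labels do not state that each library came from its own bird. P-values therefore measure the spread between these samples, which may be technical. In such tissue samples a smaller number of cells of a type and less RNA per cell cannot be told apart.

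The hypothalamus is the part of the brain that regulates the pituitary gland, feeding, body temperature and reproduction. Many of its neuropeptides are made in small groups of neurons. The nucleus taenia is the avian counterpart of part of the amygdala and takes part in social and sexual behaviour. Both regions respond to sex steroids.

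The genes carry Ensembl identifiers without symbols, and 0 of the 17475 identifiers were found in the gene table at hand. No role can therefore be given to any of the genes, no sequence could be matched to them, and the labelled regions could not be checked against known hypothalamic or amygdalar genes. Whether other brain tissue in a punch moved with these genes was not tested. The 2 genes with the largest differences are named by identifier. The others are called by their rank in the order of the smaller of their 2 differences, rank 1 being the largest.

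Female testosterone hypothalamus replicate 3 took no part in the choice, because it stood apart from the other libraries. Its summed FPKM was 1476513, against 808096 to 1158298 in the others, and its median FPKM was 7.03, against 10.3 to 12.02. It is reported separately below. The number of genes detected above 0 ran from 14285 to 15152 per library. FPKM values do not give the number of reads behind them, so the depth is unknown.

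With the labels as deposited, the rule found 108 genes. With the region labels exchanged in both sexes, which asks for a gene at least 0.5 higher in nucleus taenia, it found 140. With the labels exchanged in males alone it found 53 genes, and with the labels exchanged in females alone 93. The number of genes higher in hypothalamus was thus above both numbers of genes with opposite directions in the 2 sexes and below the number higher in nucleus taenia. The order of the counts for hypothalamus and nucleus taenia was the same after median-ratio scaling, with 116 and 125 genes, and after quantile normalization, with 119 and 135. With the library left out by the rule included, the counts were 77 genes higher in hypothalamus, 152 higher in nucleus taenia, 59 higher in female hypothalamus but in male nucleus taenia, and 163 higher in male hypothalamus but in female nucleus taenia. The last count then exceeded the number of genes higher in hypothalamus in both sexes.

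In males 498 genes, or 4.52% of 11006, were at least 0.5 higher in hypothalamus, and in females 714, or 6.49%. The 108 genes made up 21.7% of the male list and 15.1% of the female list. For the 140 genes higher in nucleus taenia, these shares were 33.5% of the male list and 15.5% of the female list. A limma fit of the same region difference over 13600 genes called 0% of them by adjusted p and 6.07% at an unadjusted p under 0.05. Since this difference chose the 108 genes, nothing about them is read from that fit.

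**Figure D1:**
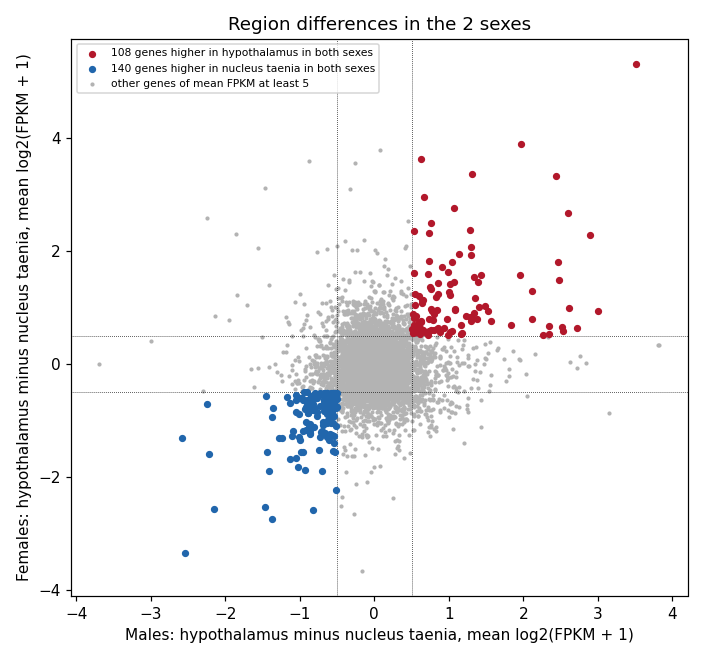
Each point is 1 of 11006 genes with a mean of at least 5 FPKM, placed by hypothalamus minus nucleus taenia in males (horizontal) and in females (vertical), in mean log2(FPKM + 1). The 108 genes at upper right reach 3.51 in males and 5.30 in females, the 140 at lower left are higher in nucleus taenia, and dotted lines mark 0.5 either way.

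Among the 108 genes the median difference was 0.98 in males and 0.94 in females in log2(FPKM + 1), a scale on which low genes show less than their true change. Over all 11006 genes the medians were −0.01 in males and −0.05 in females. The difference was larger in males for 48 of the genes and larger in females for 60. The smaller of the 2 differences had a median of 0.74, and it was at least 1 for 26 genes and at least 2 for 4.

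Most of the genes thus lay close to the threshold. Just inside it, the genes of rank 106, 107 and 108 had smaller differences of 0.513, 0.505 and 0.503. The nearest 3 genes outside it had smaller differences of 0.497, 0.497 and 0.494.

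ENSTGUG00000010980 had the largest difference. In males its FPKM in hypothalamus was 0, 1.96 and 107 in testosterone replicates 1 to 3 and 0, 253 and 196 in oil replicates 1 to 3. In male nucleus taenia it was 0, 0.757 and 0.387 in testosterone replicates 1 to 3 and 0.290, 1.31 and 0 in oil replicates 1 to 3. The gene was thus high in 3 of 6 male hypothalamus libraries, while 2 others were listed at 0 and 1 was at about the level of the nucleus taenia.

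In females its FPKM in hypothalamus was 203 and 484 in testosterone replicates 1 and 2 and 1.02, 464 and 10.6 in oil replicates 1 to 3. In female nucleus taenia it was 2.71, 0 and 0 in testosterone replicates 1 to 3 and 0.385, 1.504 and 0.426 in oil replicates 1 to 3. The highest of 12 nucleus taenia libraries was therefore 2.71 FPKM, and 7 of the 11 hypothalamus libraries lay above 10 FPKM. The differences were 3.51 in males and 5.30 in females on the log2 scale.

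ENSTGUG00000016309 was second. Its FPKM in male hypothalamus was 31.8, 0 and 0 in testosterone replicates 1 to 3 and 51.7, 37.2 and 15.4 in oil replicates 1 to 3. In male nucleus taenia it was 20.7 in testosterone replicate 2 and listed at 0 in the other 5 libraries. Oil replicates 2 and 3 were high for both genes in male hypothalamus, while oil replicate 1 held the highest male value of this gene and was listed at 0 for the first.

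In females ENSTGUG00000016309 was at 0 and 96.0 FPKM in testosterone hypothalamus replicates 1 and 2 and at 18.0, 61.7 and 18.7 FPKM in oil hypothalamus replicates 1 to 3. In female nucleus taenia it was at 26.5, 21.6 and 0 FPKM in testosterone replicates 1 to 3 and listed at 0 in all 3 oil libraries. The 2 regions overlapped in both sexes. The differences were 2.60 in males and 2.68 in females on the log2 scale.

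**Figure D2:**
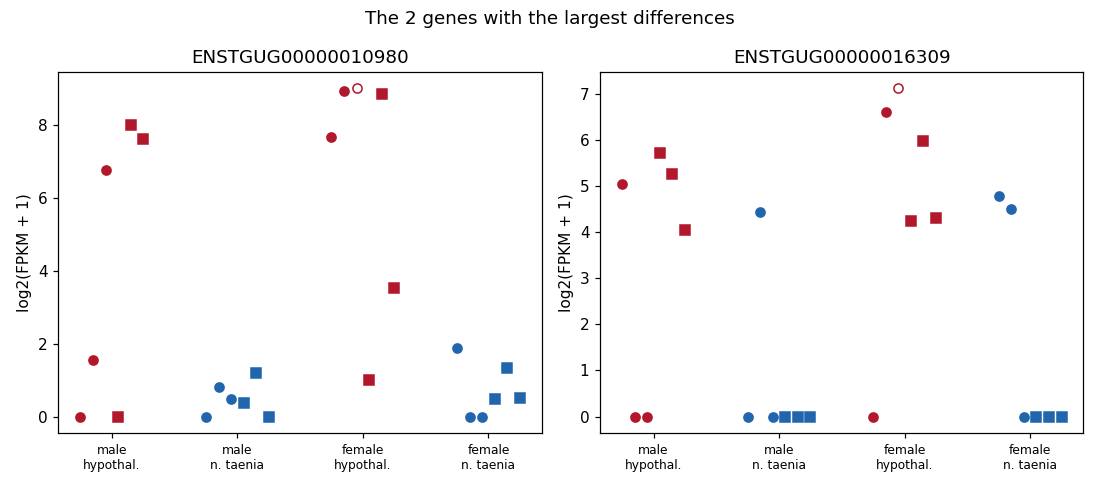
The log2(FPKM + 1) of ENSTGUG00000010980 (left) and ENSTGUG00000016309 (right) in each of 24 libraries, by sex and region. Circles are testosterone and squares oil libraries, and the open circle is the library left out by the rule; for the first gene 3 of 6 male hypothalamus libraries sit with the nucleus taenia, whose highest library of either sex is at 2.71 FPKM.

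Values listed at 0 were common among the 108 genes. At least 1 of the 23 libraries was at 0 for 33 of them, or 30.6%, against 3.07% of the 11006 genes. At least 5 libraries were at 0 for 13 of them, or 12.04%, against 1.27%. Among the 140 genes higher in nucleus taenia these shares were 14.3% and 5.71%, also above those of the 11006 genes. A value at 0 enters the region difference that chose the genes, so these shares are a description. The gene of rank 7 was listed at 0 in all 6 male nucleus taenia libraries, where its male hypothalamus values ran from 0 to 9.38 FPKM with a median of 5.09. An exact 0 in such a table can be a failed estimate, so a value is called here only listed at 0.

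The genes were of lower abundance than the rest. Their mean FPKM had a median of 18.3 and quartiles of 11.4 and 35.0, against a median of 30.9 over the 11006 genes. For the 140 genes higher in nucleus taenia the median was 24.2, also below that of the 11006 genes. Of the 108, 23 had a mean below 10 FPKM, 65 a mean between 10 and 50, 14 between 50 and 100, and 6 above 100. Among the 11006 genes these numbers were 1618, 5598, 1934 and 1856. The most abundant of the 108, at rank 38, averaged 817 ± 442 FPKM in male hypothalamus and 537 ± 468 in male nucleus taenia (SD, n = 6 each). In females it averaged 1165 ± 834 FPKM in hypothalamus (SD, n = 5) and 605 ± 404 in nucleus taenia (SD, n = 6). In both sexes the means of this gene differed by less than the larger SD.

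The 108 genes varied more between libraries than other genes did, which a choice on differences favours. The distance between the highest and the lowest of the 23 libraries had a median of 4.98 on the log2 scale over the 108 genes and 1.65 over all 11006. The SD within a group of region, sex and treatment had a median of 1.22 over the 108 genes and 0.40 over all 11006. Over the 140 genes higher in nucleus taenia these 2 medians were 3.64 and 0.93, also above those of all 11006. The median SD of the 108 genes exceeded their median region difference in either sex. The hypothalamus libraries all lay above the nucleus taenia libraries for 0 of the 108 genes in males, where 0.0182% of the 11006 genes had this separation, and for 2 of the 108 in females, where 0.482% had it. These counts rest on the same difference as the choice.

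Within groups the genes moved together. After subtracting each group's mean, the mean correlation between pairs of the 108 genes was 0.24 across the 23 libraries, against 0.01 between pairs of all 11006 genes and 0.20 among the 140 genes higher in nucleus taenia. Each gene was also correlated with the mean of the other 107, and r was at least 0.5 for 55 genes and below 0 for 11. ENSTGUG00000010980 had r = 0.70, and ENSTGUG00000016309 had r = −0.36. The points are the same 23 libraries for every gene and share their depth and scaling. The genes were also chosen on means over these libraries, which can favour genes that are high in the same few of them. These values are therefore a description.

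**Figure D3:**
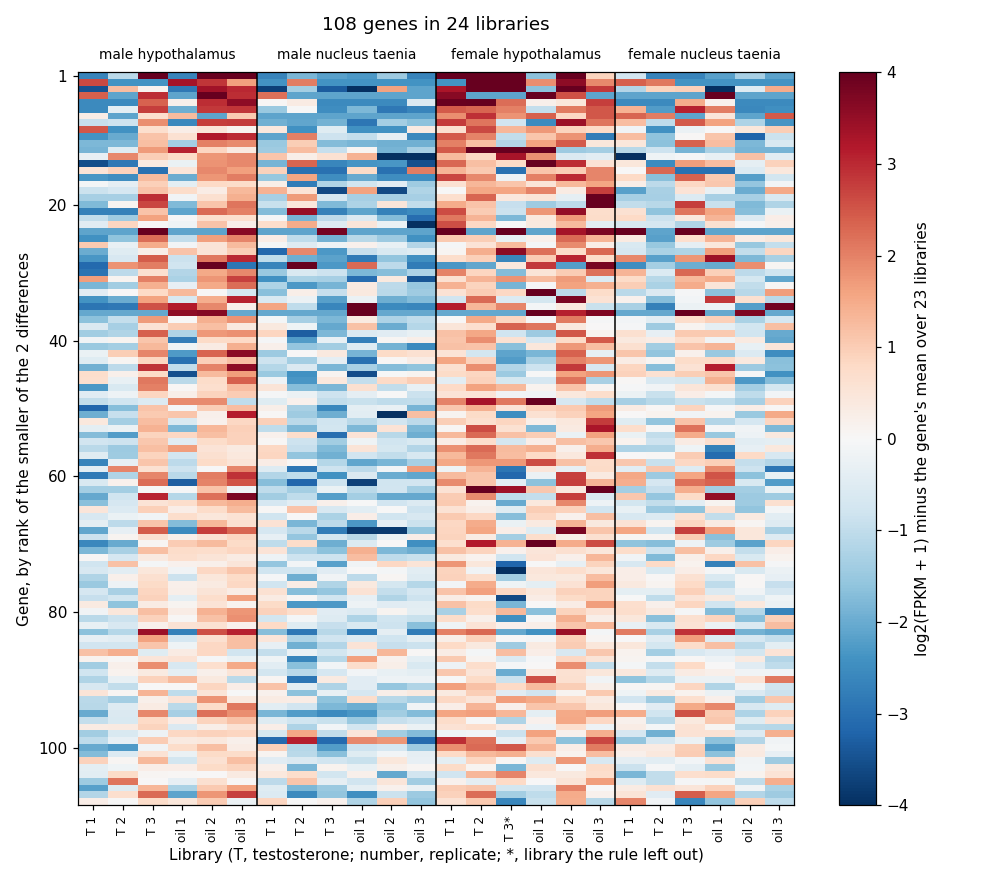
Rows are the 108 genes by rank and columns the 24 libraries by sex, region and treatment (T, testosterone), and colour is log2(FPKM + 1) minus the gene's mean over 23 libraries. Columns differ within a group: male hypothalamus testosterone 3, oil 2 and oil 3 are mostly red, and testosterone 1, testosterone 2 and oil 1 mostly blue.

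The level of the set in a library was taken as the mean, over the 108 genes, of log2(FPKM + 1) less the gene's mean over the 23 libraries. In male hypothalamus it was −1.04, −0.66 and 1.09 in testosterone replicates 1 to 3, and −0.33, 1.26 and 1.28 in oil replicates 1 to 3. In male nucleus taenia it was −0.51, −0.70 and −1.30 in testosterone replicates 1 to 3, and −0.75, −0.95 and −1.22 in oil replicates 1 to 3. Testosterone replicates 1 and 2 of the male hypothalamus thus lay within the range of the male nucleus taenia, oil replicate 1 lay slightly above it, and the other 3 libraries lay far above it. The male region difference was carried by 3 of the 6 hypothalamus libraries.

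In female hypothalamus the level was 1.02 and 1.26 in testosterone replicates 1 and 2 and 0.55, 1.23 and 1.00 in oil replicates 1 to 3. In female nucleus taenia it was 0.03, −0.78 and 0.56 in testosterone replicates 1 to 3, and 0.10, −0.72 and −0.43 in oil replicates 1 to 3. The 5 female hypothalamus libraries were all high. The lowest of them and the highest nucleus taenia library were level at 0.55 and 0.56.

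The median FPKM of the 108 genes in a library gives the same picture on the original scale. It ran from 4.53 to 30.5 in male hypothalamus and from 4.12 to 7.74 in male nucleus taenia. In females it ran from 17.8 to 30.8 in hypothalamus and from 6.79 to 20.3 in nucleus taenia. The nucleus taenia of females therefore reached values that no male nucleus taenia library had.

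**Figure D4:**
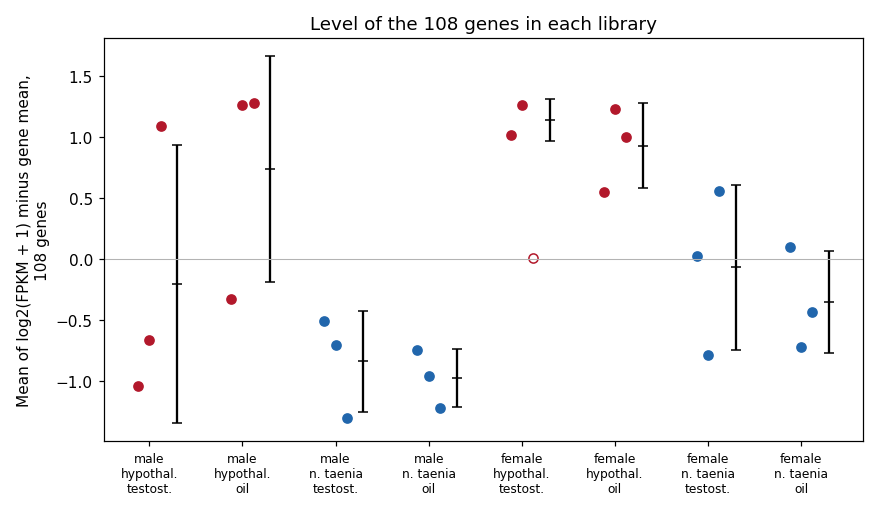
Each point is 1 library, and its height is the mean over the 108 genes of log2(FPKM + 1) minus the gene's mean; bars are the group mean ± SD (n = 3, and n = 2 for female testosterone hypothalamus), and the open point is the library left out by the rule. In male hypothalamus 3 libraries sit at 1.09 to 1.28 and 3 at −1.04 to −0.33, while male nucleus taenia lies between −1.30 and −0.51.

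The same unevenness was seen gene by gene. In male hypothalamus, 72, 72 and 70 of the 108 genes were above all 6 male nucleus taenia libraries in testosterone replicate 3, oil replicate 2 and oil replicate 3. These were 64.8% to 66.7% of the genes, where 9.88% to 13.9% of the 11006 genes were above in the same libraries. In testosterone replicates 1 and 2 and oil replicate 1 it was 12, 19 and 19 genes, or 11.1% to 17.6%, where 7.82% to 15.1% of the 11006 genes were above there. These counts too rest on the difference that chose the genes. Male testosterone hypothalamus replicate 1 was the lowest of the 6 male hypothalamus libraries for 57 of the genes. Among the 5 female hypothalamus libraries, oil replicate 1 was the lowest for 46 genes.

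Single libraries decided membership for most of the genes. When each of the 23 libraries was left out in turn and the rule applied again, 32 of the 108 genes were chosen every time and 76 were lost at least once. The highest rank lost was 19, and 18 of the first 20 genes were chosen every time. The number of genes the rule found was highest, at 167, without male testosterone hypothalamus replicate 1. It was lowest, at 90, without female oil hypothalamus replicate 2, female oil nucleus taenia replicate 3 or female testosterone nucleus taenia replicate 2.

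The region differences of the rule were also taken in 1 treatment alone, and the difference was then measured in the other. The mean of at least 5 FPKM was still taken over all 23 libraries. A gene could therefore reach it through the libraries in which it was then measured. The values are a description and not an independent measure. In oil libraries the rule chose 233 genes. In testosterone females the median of these genes was 0.68, and 83.3% were higher in hypothalamus, against a median of −0.08 and 42.6% over all 11006 genes. In testosterone males their median was −0.05, and 45.9% were higher in hypothalamus, against −0.02 and 47.6%. In these males a difference of at least 0.5 was met by 26.2% of the 233 genes, against 11.1% of all genes. The genes chosen in oil birds were thus mostly higher in the hypothalamus of testosterone females and divided about evenly in direction in testosterone males.

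In testosterone libraries the rule chose 152 genes. In oil females their median was 0.37, with 83.6% higher in hypothalamus, against −0.03 and 45.4% over all genes. In oil males their median was −0.08, with 47.4% higher in hypothalamus, against 0.03 and 54.0%. The mean over these genes in oil males was 4.51 in hypothalamus and 4.19 in nucleus taenia on the log2 scale, so mean and median differ in sign there. A difference of at least 0.5 was met by 30.3% of the 152 genes in oil males, against 9.04% of all genes. Both treatments chose 34 genes.

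The female medians stayed above 0 without each of the 23 libraries in turn, at 0.38 to 1.04 for genes chosen in oil birds and 0.20 to 0.50 for those chosen in testosterone birds. The male medians ran from −0.47 to 0.31 and from −0.31 to 0.29, and were above 0 without 9 and 6 of the 23 libraries. Their sign therefore depended on single libraries. A difference between the sexes in these medians was not tested.

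**Figure D5:**
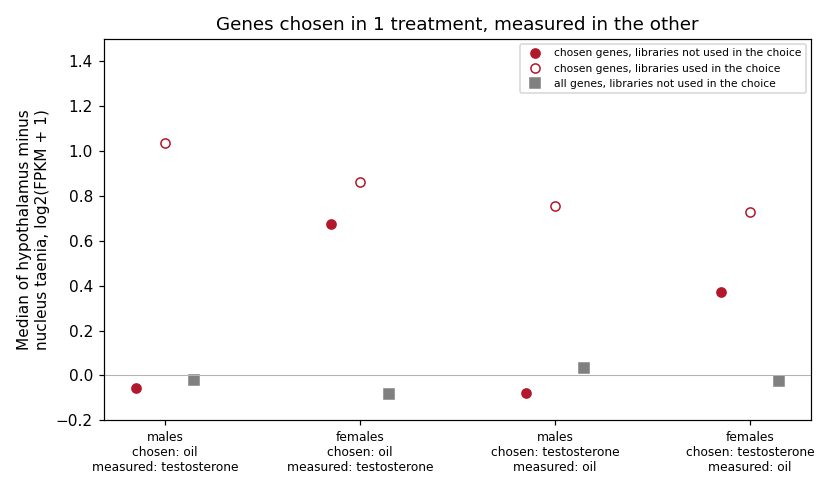
The vertical axis is the median of hypothalamus minus nucleus taenia in log2(FPKM + 1), for genes chosen by the rule in 1 treatment. Filled red points are the chosen genes in the other treatment, whose libraries entered the choice only through the mean of at least 5 FPKM. Open points are the same genes in the libraries whose region difference chose them, and grey squares are all 11006 genes. The filled points are at 0.68 and 0.37 in females and at −0.05 and −0.08 in males.

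Female testosterone hypothalamus replicate 3 had been left out of the choice. It is set here against the 6 female nucleus taenia libraries, which the rule did use and in which the genes had been chosen to be low, so the differences are a description and not an independent measure. The level of the 108 genes in it was 0.01, below the other 5 female hypothalamus libraries and within the range of the female nucleus taenia. Of the 108 genes 54 were above their mean in the 6 female nucleus taenia libraries, or 50.0%, against 47.8% of all 11006 genes. The median difference was 0.02 for the 108 genes and −0.09 for all genes. A difference of at least 0.5 was met by 39.8% of the 108 genes and by 33.4% of all genes, so that a large share of genes lay far above the nucleus taenia mean in this library.

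The ranks themselves rest in part on the same nucleus taenia mean, which favours high ranks in this comparison. Of ranks 1 to 10, 7 genes were above the female nucleus taenia mean, with a median difference of 1.84, and of ranks 11 to 108, 47 of 98 were above it, with a median of −0.10. ENSTGUG00000010980 was at 514 FPKM, the highest of the 24 libraries, and ENSTGUG00000016309 at 137 FPKM, also the highest. The 140 genes higher in nucleus taenia had a median of −1.45 relative to the female nucleus taenia in this library.

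The rule set no condition on the difference between the sexes within a region, although it used the same libraries. In hypothalamus 94 of the 108 genes had a lower mean in males than in females. The median difference was −0.72 on the log2 scale, against 0.00 over 13575 genes tested. Of these 13575, 50.1% had a higher mean in males. Since the 108 genes moved together within groups, such counts of genes are not separate observations. By limma's adjusted p, 0 of the 108 genes passed 0.05, where 0.685% of all genes did. At an unadjusted p under 0.05 there were 20 of the 108 in limma, or 18.5%, all lower in males, against 10.4% of all genes.

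This unadjusted count ran from 13 without female testosterone hypothalamus replicate 2 or without male testosterone hypothalamus replicate 2, to 37 without male testosterone hypothalamus replicate 3. In these fits 8.12%, 8.27% and 13.4% of all genes had an unadjusted p under 0.05. In the last of them 5 of the 108 genes also passed limma's adjusted threshold, where 1.05% of all genes did. The unadjusted count was 17 with the left-out library included, or 15.7%, against 9.93% of all genes. The median was then −0.46, and 0 of the 108 genes passed limma's adjusted threshold, where 0% of all genes did. The half-width of the 95% interval of a gene's difference had a median of 1.41 on the log2 scale over the 108 genes. The difference had the same sign in most of the genes and was not called for any single one with the 11 libraries. The set stood at 1.09 to 1.28 in the 3 high male hypothalamus libraries and at 0.55 to 1.26 in the 5 female libraries. The other 3 male libraries lay below every female library. Whether this division among the male libraries accounts for the sex difference was not tested.

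In nucleus taenia most of the genes were again lower in males. There 104 of the 108 genes reached the mean of 1 FPKM required for a test, and the other 4 were too low. Of the 104, 89 had a lower mean in males, with a median of −0.58, against −0.02 over 13551 genes. Of these 13551, 46.9% had a higher mean in males. By limma's adjusted p, 0 of the 104 passed, where 0.989% of all genes did. At an unadjusted p under 0.05 there were 24 of the 104 in limma, or 23.1%, of which 23 were lower in males, against 10.7% of all genes. The unadjusted count ran from 13 without female testosterone nucleus taenia replicate 3 to 33 without female testosterone nucleus taenia replicate 2, where 8.45% and 9.47% of all genes met it. In limma 1 of the 104 passed the adjusted threshold, against 0.546% to 1.02% of all genes, without female oil nucleus taenia replicate 2, female testosterone nucleus taenia replicate 2 or male testosterone nucleus taenia replicate 1.

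The gene of rank 95, the second most abundant of the 108, came closest to the threshold. In male nucleus taenia its lowest value was 58.0, its median 82.5 and its highest 127 FPKM, and in female nucleus taenia these were 144, 665 and 1964 FPKM. The sexes did not overlap for this gene alone of the 108, and 0.336% of the 11006 genes lay lower in males without overlap. Its log2 difference was −2.67 (SE 0.55, limma adjusted p = 0.0536). In hypothalamus it ran from 81.8 to 1538 FPKM in males and from 257 to 1065 in females, so there the sexes overlapped. In the male hypothalamus it was at 1279, 1538 and 1224 FPKM in testosterone replicate 3, oil replicate 2 and oil replicate 3, and at 81.8, 226 and 132 in the other 3, the same division as in the set as a whole.

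In hypothalamus the smallest adjusted p belonged to the gene of rank 100. It averaged 15.1 ± 12.02 FPKM in males (SD, n = 6) and 47.7 ± 21.1 in females (SD, n = 5). The sexes overlapped, since the highest male value was 32.9 FPKM and the lowest female value 16.9. Its log2 difference was −2.02 (SE 0.44, limma adjusted p = 0.0841).

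The 140 genes higher in nucleus taenia differed between the sexes in the other direction. In hypothalamus 119 of them had a higher mean in males, with a median of 0.55, and in nucleus taenia 118, with a median of 0.42. By limma's adjusted p 0 of the 140 passed in either region, where 0.685% of all genes did in hypothalamus and 0.989% in nucleus taenia. Since the 2 sets were chosen for opposite region differences in the same libraries, their sex differences are not independent of each other.

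Treatment was compared within each sex and region. In male hypothalamus 92 of the 108 genes had a lower mean in testosterone than in oil birds. The median was −0.82, against −0.05 over 13575 genes. Of these 13575, 45.4% had a higher mean in testosterone birds. By limma's adjusted p 0 of the 108 passed, where 0% of all genes did, and the smallest adjusted p among the 108 was 0.405. At an unadjusted p under 0.05 there were 19 in limma, or 17.6%, all lower in testosterone birds, against 10.4% of all genes.

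The low libraries of the male hypothalamus were testosterone replicates 1 and 2 and oil replicate 1. This division among the libraries and the treatment cannot be told apart here. The set stood at a mean of −0.20 ± 1.14 in testosterone and 0.74 ± 0.92 in oil libraries (SD, n = 3 each), so the group means differed by less than the SD of the testosterone group. The unadjusted count fell to 6 without oil replicate 2, or 5.56%, and to 9 without oil replicate 3, or 8.33%. In these fits 7.47% and 8.81% of all genes met it. It fell to 7 without testosterone replicate 1, or 6.48%, and to 8 without testosterone replicate 2, or 7.41%. There the shares of all genes were 4.84% and 11.1%. It was 31 without oil replicate 1, or 28.7%, and 44 without testosterone replicate 3, or 40.7%, against 7.99% and 13.2% of all genes. The share of the 108 genes was thus below that of all genes without oil replicate 2, oil replicate 3 or testosterone replicate 2. The fit without testosterone replicate 3 left 1 of the 108 past limma's adjusted threshold, where 0.243% of all genes passed, and the fit without oil replicate 3 also left 1, the only gene of all 13582 tested to pass. The median ran from −1.51 to −0.48.

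In the other 3 pairs of groups the medians lay closer to 0. In female hypothalamus the median of the 108 genes was 0.14, with 64 higher in testosterone birds, where 50.1% of all genes were. Of the 108, 0 passed in limma, where 0% of all genes did. At an unadjusted p under 0.05 there were 2, or 1.85%, against 4.21% of all genes, and with the left-out library included the median was −0.14. In male nucleus taenia the median of the 104 genes tested was 0.04. There 0 passed in limma, where 0% of all genes did. At an unadjusted p under 0.05 there were 2, or 1.92%, against 2.79% of all genes. In female nucleus taenia their median was 0.39. There too 0 passed in limma, where 0% of all genes did. At an unadjusted p under 0.05 there were 3, or 2.88%, against 2.94% of all genes. With the replicate number as a block there were 6, against 3.38% of all genes. These values rested on single libraries. In female nucleus taenia the median ran from −0.01 without testosterone replicate 3 to 0.60 without testosterone replicate 2, and the unadjusted count from 1 without testosterone replicate 1 to 11 without testosterone replicate 2. The count was also 10 without oil replicate 1 and 8 without oil replicate 2. In the fits with 1 and 11 genes, or 0.962% and 10.6% of the 104, the share of all genes was 1.85% and 2.01%. In those with 10 and 8, or 9.62% and 7.69%, it was 3.78% and 6.78%. In female hypothalamus the count was 5 without oil replicate 1, 4 without oil replicate 2 and 3 without oil replicate 3. These were 4.63%, 3.70% and 2.78% of the 108 genes, against 3.65%, 5.26% and 4.2% of all genes. In male nucleus taenia the count ran from 2 to 6. With testosterone replicate 1 omitted it was 6, or 5.77% of the 104, against 10.1% of all genes. With testosterone replicate 3 omitted it was 4, or 3.85%, against 7.08%. The half-width of the 95% interval had a median of 1.84 to 2.095 on the log2 scale in these 3 comparisons. Differences below a gene's half-width do not reach an unadjusted p of 0.05 in limma, and the adjusted threshold asks for more.

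A treatment difference that itself differed between the regions was tested within each sex. The fit took the libraries of both regions as independent. Whether same-numbered hypothalamus and nucleus taenia libraries came from the same bird is not stated, and such pairs were not checked. In males the median over the 108 genes was −0.998 (hypothalamus minus nucleus taenia), against −0.08 over 13600 genes. By limma's adjusted p 0 of the 108 passed, where 0% of all genes did, and 10 had an unadjusted p under 0.05, or 9.26%, against 6.46% of all genes. That count ran from 4 without male testosterone hypothalamus replicate 1 to 25 without male testosterone hypothalamus replicate 3, where 3.16% and 7.98% of all genes met it, and it changed by more than 1.5 times when any of 9 of the 12 male libraries was omitted. In females the median was −0.16, 0 genes passed in limma where 0% of all genes did, and 1 had an unadjusted p under 0.05, against 0.956%. The region difference of the 108 genes had a median of 0.53 in testosterone males and 1.53 in oil males, and of 0.94 in testosterone females and 0.99 in oil females.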

How the data were processed

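RNA was measured in 24 libraries, and the 24 methylation samples were not used here. The authors deposited 1 FPKM value per gene and library. The tools named, per the submitters' processing notes, are Cufflinks 2.2.1, TopHat2 2.1.1 and cutadapt 1.9.1. No genome build or annotation is given in the sources used here. All 24 columns matched a sample title, and 0 were left over.

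The 108 genes, the contrasts and the alternatives were chosen with earlier results of these data known. Values were taken as log2(FPKM + 1). Sex and treatment were tested with limma 3.58.1 in R 4.3.3, with a trend in the moderated variance. A region's libraries were fitted with 1 mean per sex and treatment group, and all libraries for treatment by region, without female testosterone hypothalamus replicate 3. Genes of mean FPKM at least 1 were tested, and p was adjusted over all of them by the Benjamini-Hochberg method. The fit was tested on simulated data. Figures used matplotlib 3.10.9.

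Genes were to be named by symbol from fixed lists. Without symbols, the 2 largest by the smaller difference are named and the others ranked. The genes of rank 38, 95 and 100 were singled out after their values were seen.

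Replicate numbers are shared between groups. Deviations of same-numbered testosterone and oil libraries from their group means correlated at r = 0.15 to 0.23 across genes in female nucleus taenia, in all 3 pairs. The main values of that comparison are still from a fit without pairs. The fit with the replicate number as a block is given beside it. Any pairing rests on the data, since the labels do not say what a number stands for.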

Additional observations from a re-analysis of the deposited data

Results flagged for a closer look

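ENSTGUG00000016309 was at 20.7 FPKM in male testosterone nucleus taenia replicate 2 and listed at 0 in the other 5 male nucleus taenia libraries, which set that library far from the rest. It was the 1 library set apart in 16 checks of the most extreme library within a sex and region, where chance gives about 1 in 20. That rate does not hold for this gene, since with the other 5 libraries at 0 any value above 0 is set apart. In female testosterone hypothalamus replicate 3, which the rule did not use, ENSTGUG00000010980 was at 514 FPKM, above the 2.71 FPKM of the highest nucleus taenia library. In the same library ENSTGUG00000016309 was at 137 FPKM, above the 26.5 FPKM of the highest nucleus taenia library. Both genes had been chosen to be low in nucleus taenia. In this library 27 of the 108 genes, or 25%, were above all 6 female nucleus taenia libraries, against 34.4% of the 11006 genes.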

How the results depend on the processing

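The rule found 66 genes with a pseudocount of 5, 48 with a minimum mean of 20 FPKM and 26 with a minimum difference of 1, against 108. A pseudocount of 0.1 gave 144, no minimum mean 159, equal weight for the treatment groups 115, and the left-out library 77. Leaving out each library in turn gave 90 to 167 genes. The number passing limma's adjusted p was 1 of 89 for sex in nucleus taenia with a minimum mean of 5 FPKM, where 1.26% of all genes passed. Leaving out 1 library gave 0 to 1 for sex in nucleus taenia, where 0.479% to 1.81% of all genes passed. It gave 0 to 5 for sex in hypothalamus, where 0% to 1.05% of all genes passed. For treatment in male hypothalamus it gave 0 to 1, where 0% to 0.243% of all genes passed. In the other 5 comparisons it gave 0, where 0% to 0.0296% of all genes passed. Without a library, female testosterone hypothalamus has 1 left, which is assumed to vary like the other groups. Genes chosen in oil libraries had medians of −0.47 to 0.31 in testosterone males and 0.38 to 1.04 in females when 1 library was left out, and those chosen in testosterone libraries −0.31 to 0.29 in oil males and 0.20 to 0.50 in females. That exercise, and the alternatives for the 2 named genes, were added after the data were seen. With the replicate number as a block, 0 of the genes passed in any of the 8 comparisons. In these fits 0.00737% of all genes passed for sex in hypothalamus and 0% in each other comparison. For sex in nucleus taenia the share of all genes without the block was 0.989%. At an unadjusted p under 0.05 the block gave 58 for sex in hypothalamus against 20 without it, where 14.5% and 10.4% of all genes met it, while 1 of all genes passed limma's adjusted p with the block and 93 without. It gave 33 against 19 for treatment in male hypothalamus, with 10.3% and 10.4% of all genes, and 26 against 10 for treatment by region in males, with 7.12% and 6.46%. It gave 8 against 2 for treatment in female hypothalamus, with 3.7% and 4.21% of all genes. For treatment in male nucleus taenia it also gave 8 against 2, with 3.21% and 2.79%. The main fits of all 8 comparisons did not take the numbers as pairs. Unknown depth limits what can be said of genes listed at 0.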
